A study of Mus musculus with 9 samples.

Results

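The genes described here are 10 genes of the NRF2 antioxidant and glutathione system, out of 22180 genes measured in cultured mouse podocytes, the epithelial cells that wrap the capillaries of the kidney glomerulus. They were chosen by name: Nfe2l2, Keap1, Nqo1, Hmox1, Txnrd1, Srxn1, Gclc, Gclm, Gstm1 and Abcc1. All 10 had a probe set (the group of probes on the array that reads one transcript) with exactly 1 gene symbol, and where a gene had several, the brightest by its mean on the 9 arrays stands for it. Differentiation at 37 °C had lasted 11 days, and the treatment lasted 16 hours. 3 arrays read cells kept in the solvent DMSO, 3 read cells in thapsigargin at 2.5 µM, and 3 read cells in thapsigargin at the same dose plus forskolin at 10 µM. No group received forskolin alone, so what forskolin did was seen only in cells that also received thapsigargin. The labels give neither the mouse strain nor the origin of the podocytes. They name biological replicates but not whether these were separate cultures, so each p-value rests on a spread that may be technical.

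Thapsigargin inhibits SERCA, the pump that loads calcium into the endoplasmic reticulum (ER), and the misfolding that follows starts an ER stress response. Forskolin switches on adenylyl cyclase, which makes cAMP. NRF2, the product of Nfe2l2, is a transcription factor that KEAP1 holds in the cytoplasm and sends for degradation. Oxidants and electrophiles modify KEAP1, NRF2 then enters the nucleus, pairs with small MAF proteins and binds antioxidant response elements near genes for glutathione synthesis, thioredoxin reduction, quinone reduction and heme breakdown. This control acts largely on the protein, so the level of Nfe2l2 RNA is not a reading of NRF2 activity. Several targets of NRF2 are also regulated by other factors, among them the BACH1 repressor for Hmox1 and ATF4, the transcription factor of the ER stress response, for genes of cystine uptake and glutathione turnover. Podocytes are long-lived cells in which oxidant injury is much studied.

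The values are log2 array values, on which a difference of 1 is a 2-fold change, and changes are given with the limma standard error. A gene is called changed where its p, adjusted by Benjamini-Hochberg over the 22180 genes, is below 0.05. The arrays of a group were alike, with Pearson correlations over all probe sets of 0.989 to 0.993 within groups and 0.966 to 0.992 between groups. Of 11 podocyte markers measured, among them Nphs1, Wt1 and Synpo, 10 lay above the array median on all 9 arrays. Ptpro, a receptor phosphatase of podocytes, lay below it. Some markers of other kidney cells also lay above it. 5 of 8 tubular, 4 of 6 mesangial and pericyte, 2 of 6 endothelial and 3 of 6 macrophage and leukocyte markers lay above the median on all 9 arrays. In the last list these were Csf1r, Cd68 and Cd14, while Ptprc, Adgre1 and Itgam were below it on all 9.

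Promoter windows of 300 bases, 250 before and 50 from a transcription start onward, were given by RefSeq (build GRCm38.p6) for 7 of the 10 genes, with 10 windows in all. Hmox1, Gclc and Abcc1 had none and were not searched. They are shown because the antioxidant response element is the sequence that NRF2 binds. Its core, TGACNNNGC on either strand, was found in 4 of the 10 windows, 1 each of Nfe2l2, Srxn1, Gclm and Txnrd1, against 12.4% of all 32851 windows. Counted by gene, it was in 4 of 7 genes, against 14% of 27025 genes. The cAMP response element TGACGTCA was in 0 of the 10 windows and in 1.79% of all windows, and the CHOP-ATF4 composite element TGATGNAAT, searched on both strands, was in 0 and in 0.965%. At such shares 10 windows would usually hold neither, so these counts of 0 do not set the genes apart from others. The core can overlap a binding site of AP-1 factors, so a match is a description of the letters alone. The bases before the start are printed from 5′ to 3′ along the gene, with the match in capitals. For Srxn1 the match lies after the start and is printed with its 10 flanking bases on each side.
Nfe2l2 (chr2:75704664-75704913, minus strand): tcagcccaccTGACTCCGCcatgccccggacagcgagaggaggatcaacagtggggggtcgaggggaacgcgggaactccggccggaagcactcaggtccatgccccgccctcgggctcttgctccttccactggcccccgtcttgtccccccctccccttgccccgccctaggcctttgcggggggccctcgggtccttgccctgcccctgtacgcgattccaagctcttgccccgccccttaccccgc
Gclm (chr3:122245307-122245556, plus strand): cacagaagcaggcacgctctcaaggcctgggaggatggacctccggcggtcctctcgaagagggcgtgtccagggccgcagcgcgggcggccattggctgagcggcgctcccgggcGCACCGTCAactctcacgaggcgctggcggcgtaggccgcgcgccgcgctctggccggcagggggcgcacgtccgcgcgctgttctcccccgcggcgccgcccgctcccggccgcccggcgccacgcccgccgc
Txnrd1 (chr10:82858956-82859205, plus strand): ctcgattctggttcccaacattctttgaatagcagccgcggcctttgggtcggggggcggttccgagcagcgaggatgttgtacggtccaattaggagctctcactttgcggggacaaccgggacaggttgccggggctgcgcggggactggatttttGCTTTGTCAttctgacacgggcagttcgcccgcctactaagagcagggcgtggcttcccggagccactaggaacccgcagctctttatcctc
Srxn1 (chr2:152105542-152105570, plus strand): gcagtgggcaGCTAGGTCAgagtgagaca
The match read TGACTCCGC along the gene in Nfe2l2. In the others it lay on the opposite strand and reads as GCACCGTCA in Gclm, GCTTTGTCA in Txnrd1 and GCTAGGTCA in Srxn1. Windows of Keap1, Nqo1 and Gstm1 did not hold these letters, and bases outside the windows were not searched.

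The first comparison asked which of the genes differed after thapsigargin alone. Hmox1 rose 2.56-fold, Txnrd1 1.59-fold and Abcc1 1.44-fold, while Gstm1 fell 3.82-fold and Gclc fell by 0.41 ± 0.06 on the log2 scale. Nfe2l2, Keap1, Nqo1, Srxn1 and Gclm did not pass the test. Of the 10 genes 3 rose and 2 fell, that is 5 called where 35% of all genes were called, 18.2% higher and 16.9% lower. All 10 lay above the median level of all genes. When only the 11090 genes above that level were tested, 6 of the 10 and 7654 of the 11090 were called. Beside genes of like brightness the 10 were thus not called more often. The groups did not overlap for 9 of the 10, against 43.9% of all genes. The median change of the 10 was 0.02, beside -0.04 over all genes. The genes thus moved in both directions after thapsigargin, with different members of the system at the ends of the range.

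With thapsigargin present in both groups, the second comparison asked what the addition of forskolin changed. Nfe2l2, Nqo1, Srxn1, Gclc, Gclm and Gstm1 rose, by 0.28 to 0.47 on the log2 scale, while Abcc1 fell by 0.57 ± 0.06 and Hmox1 by 0.29 ± 0.07. Keap1 and Txnrd1 did not pass the test. Of the 10 genes 6 rose and 2 fell, that is 8 called where 7.87% of all genes were called, 3.7% higher and 4.17% lower. When only the 11090 genes above the median level were tested, 8 of the 10 and 2620 of the 11090 were called. The groups did not overlap for 8 of the 10, against 26.1% of all genes, and the median change was 0.28 beside -0.01. Without thapsigargin replicate 3 the count was 5, with 4 higher and 1 lower, and with all probe sets fitted and adjusted together, whether or not they have a symbol, it was 6, with 5 higher and 1 lower. The changes were small, since no gene of the 10 changed by 2-fold between these groups. The genes were chosen with these results known, so the count describes them and does not test the system.

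The third comparison set thapsigargin with forskolin against DMSO. It shares its arrays with the other comparisons, so its values are given beside theirs and are not further evidence. Of the 10 genes 5 rose and 1 fell, where 34.5% of all genes were called, 17.9% higher and 16.7% lower. Those that rose were Hmox1, Txnrd1, Nqo1, Gclm and Nfe2l2, and the one that fell was Gstm1. The groups did not overlap for 8 of the 10, against 42.6% of all genes, and the median change was 0.20 beside -0.04. When only the 11090 genes above the median level were tested, 7 of the 10 and 7438 of the 11090 were called.

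**Figure D1:**
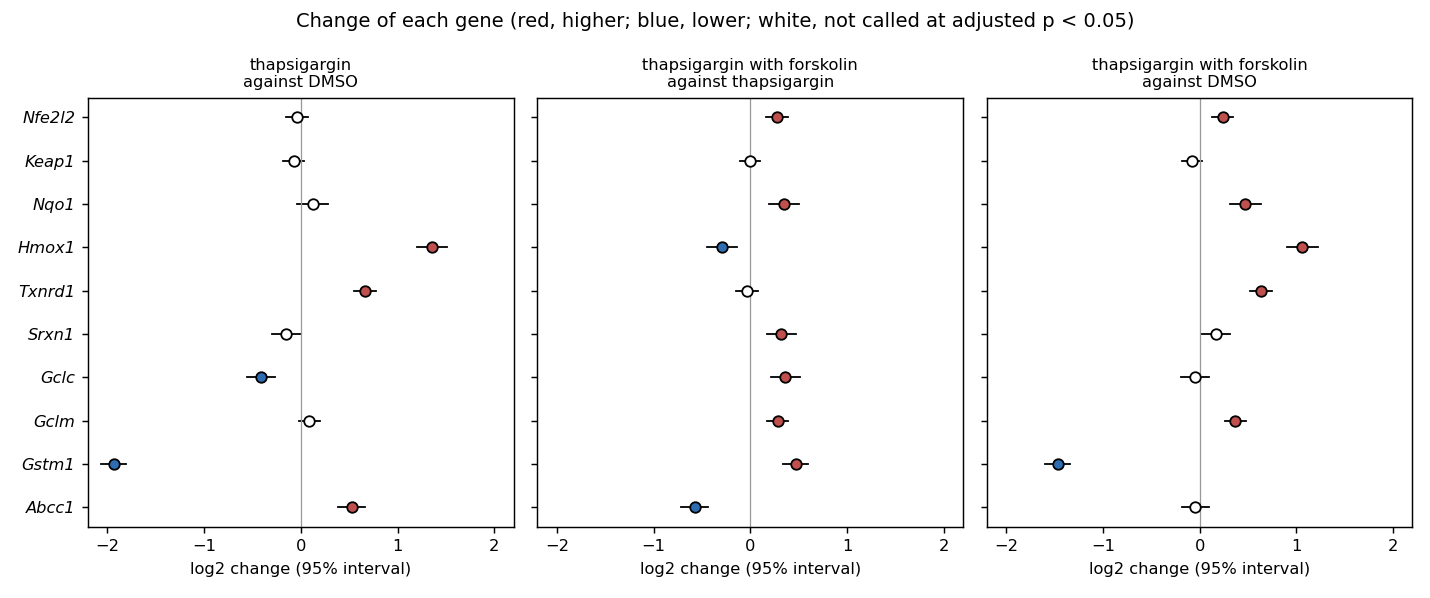
Log2 change of each of the 10 genes (points) with its 95% interval (bars) in the 3 comparisons, from the limma fit of 9 arrays; red points are called higher, blue lower and white not called. Hmox1 at 1.36 and Gstm1 at -1.94 lie farthest out after thapsigargin, and with forskolin added 6 genes lie at 0.28 to 0.47.

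**Figure D2:**
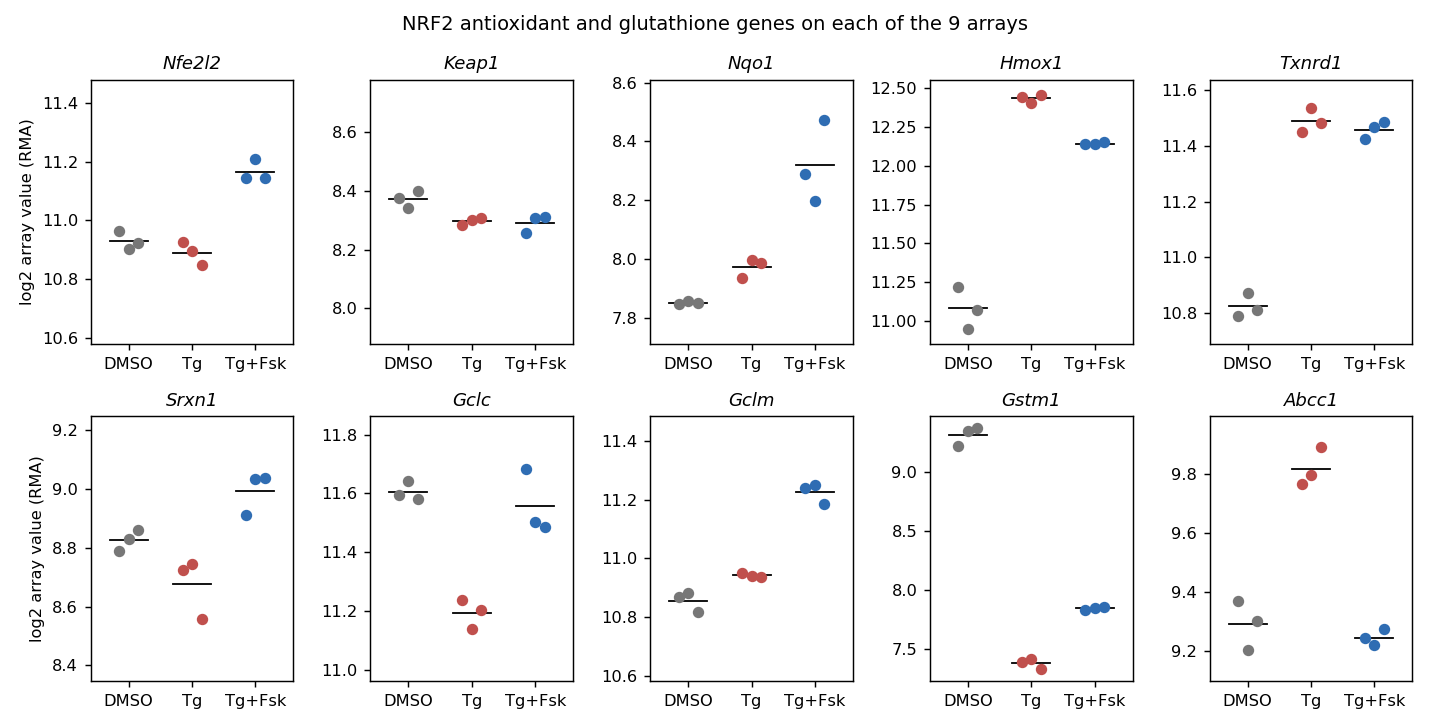
Log2 array value of each gene on the 9 arrays, 3 per group (Tg, thapsigargin; Fsk, forskolin), with each group's mean as a bar; the vertical axes differ between genes and do not start at 0. With both agents Abcc1 lies within the range of the DMSO arrays and Gclc on both sides of it, Gstm1 remains far below it and Nqo1 and Gclm lie above both other groups.

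The regulators come first. Nfe2l2, which encodes NRF2 itself, read 10.96, 10.90 and 10.92 on the DMSO arrays, 10.93, 10.89 and 10.85 on the thapsigargin arrays and 11.14, 11.21 and 11.14 on the arrays with both agents. The first 2 groups overlapped, and all 3 arrays with forskolin lay above both. Thapsigargin changed it by -0.04 ± 0.05 (limma adjusted p = 0.602, 95% interval -0.15 to 0.07). With forskolin it rose by 0.28 ± 0.05 over thapsigargin (limma adjusted p = 0.00865) and by 0.24 ± 0.05 over DMSO (limma adjusted p = 0.00444), a 1.21-fold and a 1.18-fold difference.

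Keap1, whose product holds NRF2 back, moved least. Its values were 8.37, 8.34 and 8.40 on the DMSO arrays, 8.28, 8.30 and 8.31 with thapsigargin and 8.26, 8.31 and 8.31 with both. The DMSO arrays lay just above the other 6, and the other 2 groups overlapped. The change was -0.07 ± 0.05 after thapsigargin (limma adjusted p = 0.276) and -0.00 ± 0.05 when forskolin was added (limma adjusted p = 0.977), with 95% intervals of -0.18 to 0.03 and -0.11 to 0.10. After another quantile normalization Keap1 passed as lower after thapsigargin (-0.16, limma adjusted p = 0.0227). Keap1 was the only one of the 10 with a second probe set, whose change was -0.05 ± 0.08 after thapsigargin and 0.07 ± 0.08 when forskolin was added.

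Gclc and Gclm encode the catalytic and the modifier subunit of glutamate-cysteine ligase, the rate-limiting enzyme of glutathione synthesis. Gclc read 11.59, 11.64 and 11.58 with DMSO, 11.24, 11.14 and 11.20 with thapsigargin and 11.68, 11.50 and 11.48 with both. The thapsigargin arrays lay below all others, and the DMSO and combined arrays overlapped. Gclc fell 1.33-fold after thapsigargin (limma adjusted p = 0.000674) and rose 1.29-fold when forskolin was added (0.36 ± 0.06, limma adjusted p = 0.00807). Between the combined treatment and DMSO the difference was -0.05 ± 0.06 (limma adjusted p = 0.615), and its 95% interval reached from -0.20 to 0.10.

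Gclm did not follow its partner subunit after thapsigargin. Its values were 10.87, 10.88 and 10.82 with DMSO, 10.95, 10.94 and 10.94 with thapsigargin and 11.24, 11.25 and 11.18 with both, 3 groups that did not overlap. The step from DMSO to thapsigargin was 0.09 ± 0.05 and did not pass (limma adjusted p = 0.212). The step from thapsigargin to both was 0.28 ± 0.05 (limma adjusted p = 0.00632), and the combined arrays were 1.29-fold above DMSO (limma adjusted p = 0.000207). The order of the levels was therefore DMSO, thapsigargin and both, with the first 2 not separated by the test. For Gclc the order was thapsigargin, both and DMSO, with the last 2 not separated.

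Gstm1, a glutathione S-transferase that couples glutathione to electrophiles, changed most of the 10. Its values were 9.22, 9.35 and 9.37 with DMSO, 7.39, 7.41 and 7.33 with thapsigargin and 7.83, 7.85 and 7.86 with both. The 3 groups did not overlap, and the spread within each was far smaller than the steps between them. Thapsigargin lowered it 3.82-fold (-1.94 ± 0.06, limma adjusted p = 1.47e-08), and the combined arrays were 1.38-fold above thapsigargin alone (0.47 ± 0.06, limma adjusted p = 0.00104). They remained 2.76-fold below DMSO (limma adjusted p = 7.45e-08). The Gstm genes are close relatives whose transcripts can bind each other's probes, and how far the probe sets separate them was not tested. Gstm2 read 8.97, 9.16 and 9.03 with DMSO, 6.64, 6.72 and 6.80 with thapsigargin and 6.54, 6.52 and 6.44 with both. It fell by 2.33 ± 0.07 with thapsigargin, and its difference when forskolin was added was -0.22 ± 0.07, which did not pass (limma adjusted p = 0.101), beside 0.47 ± 0.06 for Gstm1.

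The cytosolic thioredoxin reductase gene Txnrd1, whose enzyme uses NADPH to keep thioredoxin reduced, read 10.79, 10.87 and 10.81 with DMSO, 11.45, 11.54 and 11.48 with thapsigargin and 11.43, 11.47 and 11.49 with both. All 6 arrays with thapsigargin lay above the DMSO arrays, and they overlapped among themselves. Txnrd1 rose by 0.67 ± 0.05 after thapsigargin (limma adjusted p = 5.38e-06) and lay 0.63 ± 0.05 above DMSO with both agents (limma adjusted p = 8.45e-06). When forskolin was added the difference was -0.03 ± 0.05 (limma adjusted p = 0.822, 95% interval -0.15 to 0.08).

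Srxn1 encodes sulfiredoxin, which repairs over-oxidised peroxiredoxins. It read 8.79, 8.83 and 8.86 with DMSO, 8.72, 8.74 and 8.56 with thapsigargin and 8.91, 9.03 and 9.04 with both. The groups did not overlap, with thapsigargin lowest and both agents highest. The test separated only these 2, by 0.32 ± 0.07 or 1.25-fold (limma adjusted p = 0.018). The differences from DMSO were -0.15 ± 0.07 after thapsigargin (limma adjusted p = 0.116) and 0.17 ± 0.07 with both (limma adjusted p = 0.0831). After another quantile normalization Srxn1 passed as lower after thapsigargin (-0.23, limma adjusted p = 0.0289), as it did among genes above the median level (-0.15, limma adjusted p = 0.0473). The rise with forskolin lost its call when all probe sets were fitted and adjusted together (limma adjusted p = 0.0521) and without thapsigargin replicate 3, combined replicate 2 or combined replicate 3, with limma adjusted p of 0.0598, 0.0748 and 0.0706.

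Nqo1 encodes a quinone reductase and is a textbook target of NRF2. It read 7.85, 7.85 and 7.85 with DMSO, 7.94, 8.00 and 7.98 with thapsigargin and 8.29, 8.20 and 8.47 with both. The groups did not overlap, and the combined arrays were the most spread, with an SD of 0.14 beside 0.03 for thapsigargin. The step from DMSO to thapsigargin was 0.12 ± 0.07 and did not pass (limma adjusted p = 0.233). Nqo1 rose 1.27-fold when forskolin was added (0.35 ± 0.07, limma adjusted p = 0.0156) and lay 1.39-fold above DMSO (0.47 ± 0.07, limma adjusted p = 0.00054). The call for forskolin was lost without thapsigargin replicate 1 (limma adjusted p = 0.0678) or thapsigargin replicate 3 (limma adjusted p = 0.0522).

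Hmox1 encodes heme oxygenase 1, which breaks heme down to biliverdin, iron and carbon monoxide. Its values were 11.22, 10.95 and 11.07 with DMSO, 12.44, 12.41 and 12.46 with thapsigargin and 12.14, 12.14 and 12.15 with both. The 3 groups did not overlap, with thapsigargin alone highest. Thapsigargin raised it by 1.36 ± 0.07 (limma adjusted p = 3.62e-07), and with both agents it was 2.09-fold above DMSO (limma adjusted p = 1.97e-06). Against thapsigargin alone it fell by 0.29 ± 0.07 (limma adjusted p = 0.0322), opposite to the 6 genes that rose. That fall lost its call when any 1 of the 6 arrays compared was left out, with limma adjusted p of 0.0775 to 0.108 and changes of -0.28 to -0.31, and when all probe sets were fitted and adjusted together (limma adjusted p = 0.0831). The spread of Hmox1 in the fit comes mostly from the DMSO arrays, with an SD of 0.14 there, 0.03 with thapsigargin and 0.01 with both, where 2 arrays held equal values.

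Abcc1 encodes MRP1, an export pump of the cell membrane that carries glutathione and glutathione conjugates out of cells. It read 9.37, 9.20 and 9.30 with DMSO, 9.77, 9.80 and 9.89 with thapsigargin and 9.24, 9.22 and 9.27 with both. The thapsigargin arrays lay above all others, and the DMSO and combined arrays overlapped. Abcc1 rose by 0.53 ± 0.06 after thapsigargin (limma adjusted p = 8.65e-05) and fell by 0.57 ± 0.06 when forskolin was added (limma adjusted p = 0.000491). The combined arrays differed from DMSO by -0.05 ± 0.06 (limma adjusted p = 0.609), with a 95% interval of -0.18 to 0.09.

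The calls for Nfe2l2, Gclc, Gclm, Gstm1 and Abcc1 with forskolin held with each single array left out and under the other settings tried, with limma adjusted p of at most 0.0441, the value of Nfe2l2. All 5 genes called after thapsigargin and all 6 called for the combined treatment against DMSO also kept their direction and call in each of these settings.

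**Figure D3:**
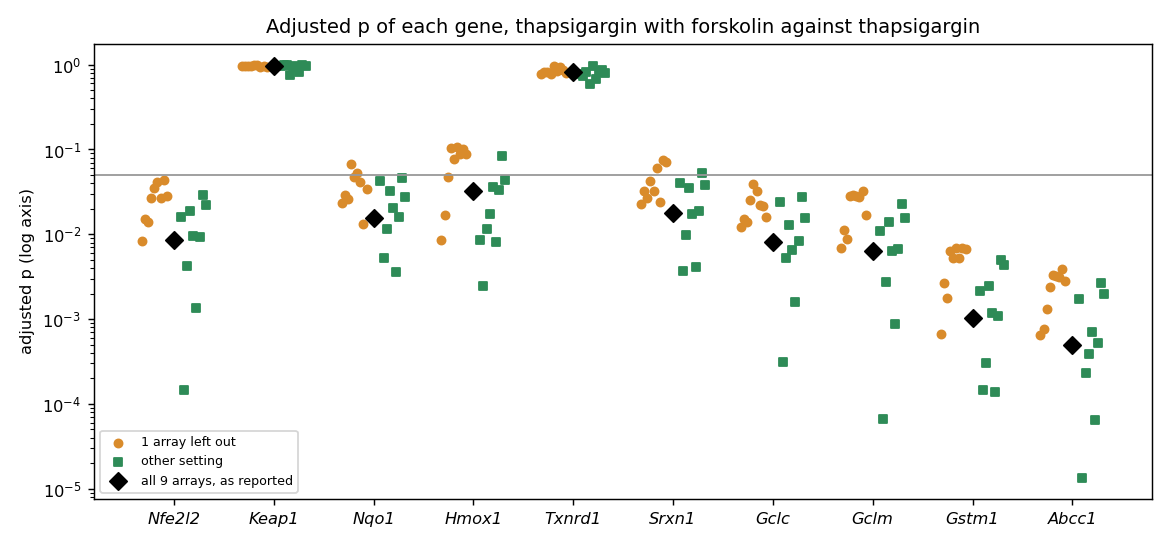
Benjamini-Hochberg adjusted p (log axis) of each gene for thapsigargin with forskolin against thapsigargin: black diamonds, all 9 arrays as reported; orange points, 1 of the 9 arrays left out; green squares, the other settings; grey line, 0.05. Points of Hmox1, Srxn1 and Nqo1 cross the line when 1 array is left out, those of Hmox1 and Srxn1 also under 1 other setting, and those of Gstm1 and Abcc1 remain below 0.01.

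For the 4 genes whose group means spanned at least 0.5 on the log2 scale, the genes most like them were sought among 10453 others. These lay above the median level, with predicted, clone and microRNA names left out. The most alike had the smallest root mean square difference of the 9 array values, each gene set to its own mean. Nearest to Hmox1 were Eif4ebp1 at 0.06, Zfp598 at 0.07 and Ddx21 at 0.07. Nearest to Txnrd1 were Rbm39, Acvr1 and Cers2, each at 0.04. Nearest to Gstm1 were Slc6a6, Veph1 and Pla2g7, each at 0.07. Nearest to Abcc1 were Zfpm2 at 0.08, Plk2 at 0.08 and Spcs3 at 0.09. None of the 12 is a gene of the lists described here.

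Around the 10 genes, 9 lists held 106 further genes of the same biochemistry, of which 93 were measured and 9 lay only on probe sets with several symbols. After thapsigargin 19 rose and 35 fell, 58.1% called beside 35% of all genes, with a median change of -0.16. When forskolin was added 12 rose and 5 fell, 18.3% called beside 7.87%, with a median of 0.02. Against DMSO the combined treatment gave 23 higher and 35 lower, 62.4% called beside 34.5% of all genes. The shares of all genes, here and for each list below, include many dim genes, which are called less often. When only genes above the median level were tested, 57 of 70 wider genes and 7654 of 11090 genes were called after thapsigargin. With forskolin added these were 25 of 70 and 2620 of 11090, and for the combined treatment against DMSO 58 of 70 and 7438 of 11090.

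Among 10 partners and regulators of NRF2, 5 rose and 1 fell after thapsigargin, 60% called beside 35% of all genes. Mafk, a small MAF partner, rose by 0.70 ± 0.09, and Nfe2l1, the NRF2 relative NRF1, and Sqstm1, whose product p62 binds KEAP1, rose by 0.53 ± 0.05 and 0.52 ± 0.04. Named after their values were seen, Gsk3b at 0.29 ± 0.06 and Cul3 at 0.20 ± 0.06 also rose, and Bach1, the repressor of Hmox1, fell by 0.46 ± 0.08. The call of Cul3 was lost with any 1 of the 6 arrays compared left out but DMSO replicate 3 (limma adjusted p of 0.058 to 0.0926) and after another quantile normalization (limma adjusted p = 0.102). When forskolin was added 10% of the list was called, near the 7.87% of all genes, and only Maff, another small MAF, passed. It read 8.34, 8.20 and 8.22 with DMSO, 8.16, 8.33 and 8.34 with thapsigargin and 9.15, 8.81 and 9.04 with both, a rise of 0.72 ± 0.09 (limma adjusted p = 0.00156) at which the first 2 groups overlapped and the third stood apart.

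Among 12 genes of glutathione synthesis, breakdown and cystine import, 5 rose and 3 fell after thapsigargin, 66.7% called beside 35% of all genes. Slc7a11, the cystine carrier of system xc-, rose to 9.08, 8.97 and 9.16 from DMSO values of 4.73, 4.84 and 4.65, close to the lower quartiles of the arrays at 4.53 to 4.59, so that no fold is given. Chac1, which breaks glutathione down, rose by 2.86 ± 0.05, and its relative Chac2 fell by 1.60 ± 0.06. Named after their values were seen, Slc3a2, the partner chain of the cystine carrier, rose by 0.89 ± 0.05, Gsr, the glutathione reductase, by 0.43 ± 0.05 and Ggct by 0.24 ± 0.08, while Oplah and Ggt7 fell by 0.50 ± 0.06 and 0.38 ± 0.10. The call of Ggct was lost in the fit of only the 6 arrays compared (limma adjusted p = 0.0683) and without DMSO replicate 1 or 2, thapsigargin replicate 1 or 2 or combined replicate 2 (limma adjusted p of up to 0.131). When forskolin was added 1 rose and 2 fell, 25% called beside 7.87% of all genes. Oplah, which returns 5-oxoproline to glutamate, rose by 0.38 ± 0.06, Slc7a11 fell by 0.50 ± 0.07, and Gss, the second enzyme of glutathione synthesis, fell by 0.29 ± 0.06 while Gclc and Gclm rose.

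Of 18 S-transferases, which use glutathione, 11 fell and 1 rose after thapsigargin, 66.7% called beside 35% of all genes. The largest falls were Gstm2 at -2.33 ± 0.07, Mgst1 at -1.63 ± 0.11 and Mgst3 at -1.36 ± 0.11. The one that rose, Gsto1 at 1.16, was named after its value was seen. So were Gstm3, Gstm6 and Gstt3, which fell with group means below the array medians of 5.80 to 5.88. The call of Gstm6 was lost under 12 of 17 alternatives (limma adjusted p of up to 0.14) and that of Gstt3 under 4 of 17 (up to 0.0611). Several of those that fell are Gstm genes, whose probe sets may not be separate. None passed in limma when forskolin was added, where 4 were higher and 2 lower at an unadjusted p below 0.05, and Gstp1, the one with the highest mean, differed by 0.21 ± 0.07 (limma adjusted p = 0.145, and 0.0341 with a trended robust prior). Of 10 peroxidases and glutaredoxins 3 fell and 1 rose after thapsigargin, 40% called beside 35% of all genes and so near that share, with Glrx at -2.08 ± 0.06, Gpx8 at -1.52 ± 0.07 and Gpx1 at -0.95 ± 0.05. Glrx5, named after its value was seen, rose by 0.21 ± 0.05, a call lost with the mean of its probe sets (limma adjusted p = 0.0755). With forskolin Glrx passed at 0.28, Gpx1 at -0.25 and Glrx5 at -0.21, 30% of the list beside 7.87% of all genes. The call of Glrx was lost without thapsigargin or combined replicate 2 or 3, that of Gpx1 without any thapsigargin array or combined replicate 1 or 2, and that of Glrx5 without any of the 6 arrays compared or DMSO replicate 2, with limma adjusted p of up to 0.0899, 0.0804 and 0.121. With the mean of its probe sets Glrx5 was also lost (limma adjusted p = 0.485).

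Of 10 genes of the thioredoxin and peroxiredoxin system 4 rose and 3 fell after thapsigargin, 70% called beside 35% of all genes. The largest changes were the stress gene Sesn2 at 1.21 ± 0.07, the mitochondrial thioredoxin Txn2 at 1.07 ± 0.07 and Sesn1 at -0.86 ± 0.12. The others, named after their values were seen, were Prdx3 at 0.49 ± 0.08, Txnl1 at 0.40 ± 0.05, Prdx2 at -0.61 ± 0.05 and Prdx4 at -0.39 ± 0.12, the ER peroxiredoxin. The call of Prdx4 was lost without DMSO replicate 3, thapsigargin replicate 2 or thapsigargin replicate 3 (limma adjusted p of 0.06 to 0.0914) and after centring on the array medians (limma adjusted p = 0.0531). With forskolin only Txnrd3 passed, at -0.48 ± 0.06, while Txnrd1 did not. That was 10% of the list, near the 7.87% of all genes. Of the 5 superoxide dismutase and catalase genes only Sod1 passed after thapsigargin, falling by 0.25 ± 0.05, 20% called beside 35% of all genes. With forskolin the share was 20% beside 7.87%. Sod3, the extracellular dismutase, read 6.15, 5.98 and 6.15 with DMSO, 5.98, 5.95 and 5.52 with thapsigargin and 7.33, 7.55 and 6.86 with both, a rise of 1.43 ± 0.18 with forskolin (limma adjusted p = 0.00123).

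Of 7 genes of heme and iron handling 0 rose and 5 fell after thapsigargin in limma, while Hmox1 rose. At an unadjusted p below 0.05 the counts were 0 and 6. The share called was 71.4% beside 35% of all genes, and with forskolin 28.6% beside 7.87%. After thapsigargin Slc40a1 was at -0.60 ± 0.13, Fech at -0.43 ± 0.05 and Slc48a1 at -0.38 ± 0.06. Blvra, the biliverdin reductase that follows HMOX1, was at -0.29 ± 0.09, named after its value was seen, and its call was lost without DMSO replicate 1 or 2, thapsigargin replicate 1 or 2 or combined replicate 3 (limma adjusted p of up to 0.132), in the fit of 6 arrays (0.0656) and after centring (0.0641). Hmox2, the other heme oxygenase, fell by 0.34 ± 0.06 after thapsigargin. It read 8.90, 8.78 and 8.78 with DMSO, 8.46, 8.47 and 8.50 with thapsigargin and 9.02, 9.09 and 9.08 with both, and the rise with forskolin was 0.59 ± 0.06 (limma adjusted p = 0.000229). Fech passed with forskolin at 0.18 (limma adjusted p = 0.048), and the call was lost without any 1 array but DMSO replicate 1 (limma adjusted p of up to 0.149), after centring on the array medians (0.152) and with the mean of its probe sets (0.0517).

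Of 12 enzymes of NADPH supply and detoxification 1 rose and 7 fell after thapsigargin. The share called was 66.7% beside 35% of all genes, and with forskolin 41.7% beside 7.87%. After thapsigargin the largest changes were Cbr1 at -1.53 ± 0.09, Ephx1 at -0.83 ± 0.06 and Osgin1 at -0.68 ± 0.07. With forskolin 5 rose and 0 fell in limma (7 and 1 at an unadjusted p below 0.05), with Cbr1 at 0.49 ± 0.09, Ugdh at 0.40 ± 0.05 and Osgin1 at 0.38 ± 0.07, the last lost without combined replicate 2 (limma adjusted p = 0.05). Named after their values were seen, the others were Me1 at 0.32 ± 0.06 and Pgd at 0.29 ± 0.05, which both make NADPH, and Ugdh was the one that had risen after thapsigargin, by 0.25 ± 0.05. Of 9 relatives of Abcc1 2 rose and 1 fell after thapsigargin, 33.3% called beside 35% of all genes. With forskolin 11.1% were called beside 7.87%. Abcc4, an exporter of cyclic nucleotides and organic anions, read 9.58, 9.76 and 9.68 with DMSO, 10.88, 10.88 and 10.89 with thapsigargin and 11.30, 11.30 and 11.29 with both. It rose at both steps, by 1.21 ± 0.06 and by 0.41 ± 0.06 (limma adjusted p = 0.00206), where Abcc1 rose and then fell. Abcc5 fell by 0.47 ± 0.06 after thapsigargin, and Abcc10 rose by 0.23 ± 0.07, a call lost without DMSO replicate 1 (limma adjusted p = 0.0612) or thapsigargin replicate 3 (limma adjusted p = 0.0751) and after another quantile normalization (limma adjusted p = 0.0509).

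**Figure D4:**
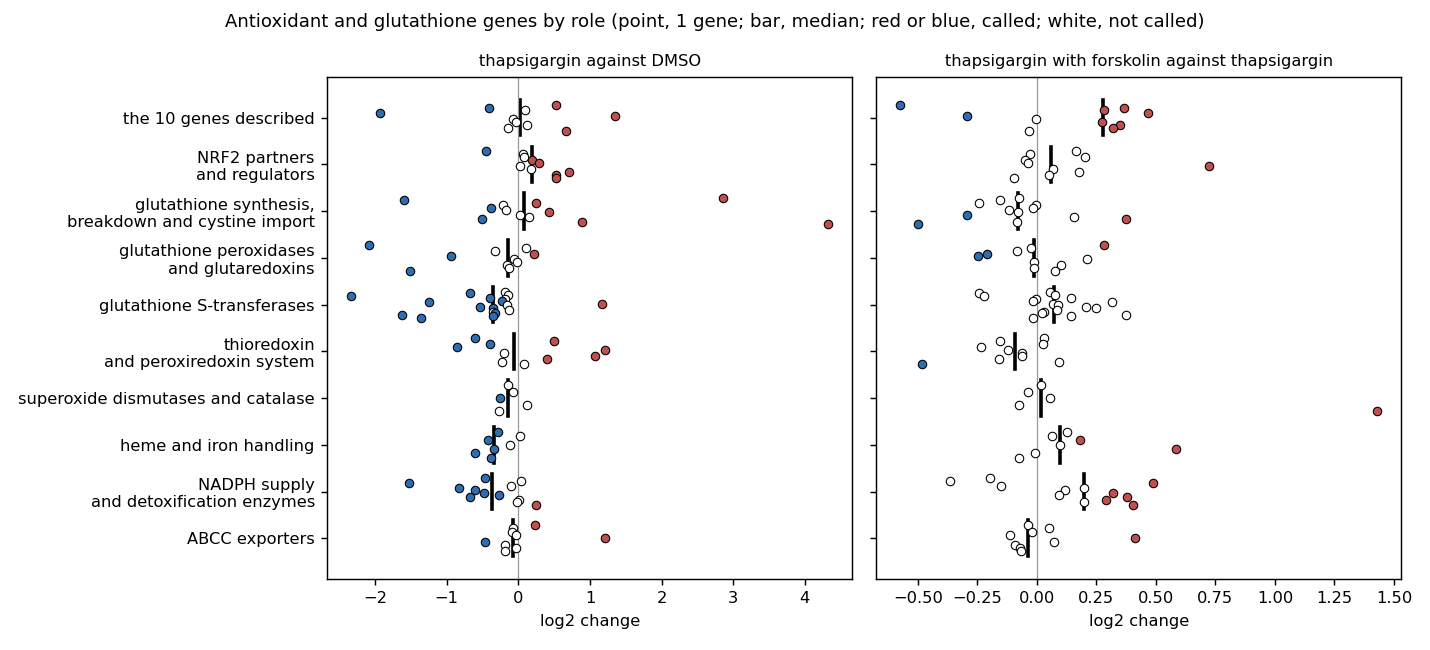
Log2 change of each gene (points) by role for thapsigargin against DMSO and for thapsigargin with forskolin against thapsigargin, with the list's median as a bar; red points are called higher, blue lower and white not called, and the horizontal axes differ. S-transferases lie mostly left of 0 after thapsigargin (11 of 18 lower), and with forskolin 5 of 12 NADPH and detoxification enzymes are called higher.

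Some markers of each cell type passed the test after thapsigargin, most of them in the podocyte list. The shares called were 72.7% podocyte, 37.5% tubular, 33.3% mesangial and pericyte, 16.7% endothelial and 16.7% macrophage and leukocyte, beside 35% of all genes. Only the podocyte share stood well above that. With forskolin the tubular, mesangial and macrophage shares were 12.5%, 33.3% and 33.3%, beside 7.87%. Averaged over the list, the 8 tubular markers read 7.66 to 7.72 with DMSO, 6.65 to 6.76 with thapsigargin and 6.72 to 6.83 with both, and 3 of the 8, Aqp1, Cdh16 and Lrp2, fell after thapsigargin. The 11 podocyte markers read 8.72 to 8.77, 8.05 to 8.06 and 7.87 to 7.91, with 6 lower and 2 higher after thapsigargin. When forskolin was added 5 of them were lower and 2 higher, 63.6% called beside 7.87% of all genes. Those lower were Plce1 at -1.29, Podxl at -0.79, Actn4 at -0.46, Cd2ap at -0.25 and Foxc2 at -0.25. Those higher were Synpo at 0.55 and Kirrel at 0.37. In the tubular list Cdh16 alone passed with forskolin, at 0.54. After thapsigargin the falls of the tubular and podocyte means came mostly from 2 genes each. They were Aqp1 at -3.24 and Cdh16 at -3.37, and Plce1 at -3.45 and Synpo at -2.52. Of the podocyte markers Nphs1, Lmx1b and Ptpro did not pass. The means of the other lists rest on 1 or 2 genes each. The 6 mesangial and pericyte markers read 7.40 to 7.49, 7.05 to 7.11 and 7.48 to 7.64, where Pdgfrb and Mcam fell after thapsigargin, by 1.23 and 0.73, and rose with forskolin, by 0.38 and 2.58. The 6 macrophage and leukocyte markers read 6.25 to 6.36, 6.02 to 6.08 and 6.28 to 6.38, where Csf1r fell by 1.18 after thapsigargin and Csf1r and Cd14 rose by 0.82 and 0.87 with forskolin. The 6 endothelial markers read 6.15 to 6.20, 5.97 to 6.08 and 5.94 to 6.01, where Ehd3 alone passed after thapsigargin, at -1.21, and none passed with forskolin in limma, also at an unadjusted p below 0.05. Fewer cells of a type and less RNA per cell cannot be told apart in such samples, and the part of these shifts in the changes of the 10 genes was not tested.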

How the data were processed

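RNA of 9 samples was measured on single-colour arrays, 3 per group. Per the submitters' processing notes the authors used affy and RMA, and the deposited table holds a log2 value for each probe set on each array. RMA corrects background, makes the arrays' distributions alike and summarises probes by median polish, so changes are relative to the bulk of genes. No version or genome build is stated there. Scanner files were not used here, so whether a probe set was above background is unknown. Precision is limited by the number of arrays.

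Of 41345 probe sets, 23521 have 1 gene symbol, 1814 several and 16010 none in the annotation table; the first kind gave 22180 genes. Entrez IDs were matched to RefSeq gene names of assembly GRCm38.p6 (23328 matched, 0 symbols changed). Groups came from the sample titles. The 9 arrays were fitted together by group (limma 3.58.1, R 4.3.3; 6 residual degrees of freedom, no covariate) with 3 two-sided contrasts, eBayes and Benjamini-Hochberg adjustment over all genes. The fit was tested on simulated data. Promoters were searched and figures drawn in Python 3.11.15 (pandas 2.3.3, matplotlib 3.10.9).

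The 10 genes were all named, and in the first 2 comparisons up to 3 called genes per wider list with the largest change, or, with none called, the brightest; others are marked. Members and lists were chosen with earlier results of these data known. Alternatives were leaving out each array, fitting only the 6 arrays compared, a trended robust prior, weighting arrays, centring them on their medians, quantile normalizing them again, testing only genes above the median level, averaging a gene's probe sets, and a replicate block. Fitting and adjusting over all probe sets, and running the alternatives on single wider genes, were added after seeing the data.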

Additional observations from a re-analysis of the deposited data

How the results depend on the processing

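Of 19 results called for the 10 genes over the 3 comparisons, 169 of 171 values under the 9 alternatives that keep all arrays or compare 6 kept direction and call. The other 2 were the forskolin calls of Hmox1 (limma adjusted p = 0.0831) and Srxn1 (0.0521), lost when all probe sets were fitted and adjusted together, a setting added after seeing the data. With 1 array left out 160 of 171 values kept them, the other 11 losing the call in the forskolin comparison for Hmox1, Srxn1 and Nqo1. With each array left out in turn, the count of the 10 genes called for forskolin lay between 5 and 8. Of 11 results not called, 7 values passed under an alternative. These were Gclm after thapsigargin at 0.09 with trend and robust prior, Keap1 at -0.16 and -0.17 against DMSO without and with forskolin and Srxn1 at -0.23 after thapsigargin with another quantile normalization, and Srxn1 in both comparisons with DMSO on other fits. The change of Keap1 with forskolin, near 0 throughout, was positive with array weights (0.0007) and with the mean of its probe sets (0.032), and lay between -0.0146 and 0.0123 with 1 array left out. Over all genes, the forskolin comparison called 1745 genes, 2620 of 11090 when only genes above the median level were tested, 1150 without combined replicate 2 and 1143 of the 22180 when adjusted over all probe sets.

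Centring or another quantile normalization shifted the median change of all genes by at most 0.04. For the 54 wider genes called after thapsigargin 50 of 966 values lost the call, and for 18 called or named with forskolin 36 of 324 lost it and 1 gained it. The replicate numbers were not taken to pair the arrays, since the labels tie them to nothing shared and not every same-numbered pair deviated together. Correlations of deviations from the group means were -0.07 to 0.25 between same-numbered arrays, over 0.1 in 4 of 9 pairs, and -0.30 to 0.25 between others, over 0.1 in 2 of 18. The 3 pairs of replicate 3 lay at 0.18 to 0.23, and 10 of 18 best matches between groups had the same number. With a block for replicate number the counts of the 10 genes called were 5, 8 and 6, as without it, and the wider genes called were 50, 13 and 59 beside 54, 17 and 58. Of the wider genes named, the block ended the calls of Cul3 (limma adjusted p = 0.0537), Ggct (0.0599), Blvra (0.0643) and Gstm6 (0.0725) after thapsigargin. With forskolin it ended those of Glrx (0.0513), Gpx1 (0.0528), Glrx5 (0.0617) and Fech (0.0869). Adjustment over all probe sets ended the calls of the same genes and of Prdx4 (limma adjusted p = 0.0537).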
